A study of Mus musculus with 16 samples.

Results

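Open chromatin of mouse fibroblasts on their way to pluripotency was compared between day 2 and day 6 of chemical reprogramming. The members are the ATAC-seq peaks of these days on chromosomes 1 to 19, X and Y: 82986 of the 83022 peaks deposited for day 2, and 57871 of 57924 for day 6. Peaks that shared at least 1 bp were merged into 91382 regions, set beside the 165616 regions of all 8 lists in the series. A region is called kept if it held peaks of both days, day 2 only if it held a peak of day 2 alone, and day 6 only for the reverse.

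ATAC-seq uses the Tn5 transposase to cut and tag accessible DNA. The series holds 16 samples, 2 at each of 8 stages: mouse embryonic fibroblasts (MEF, day 0), days 2, 4, 6, 8, 10 and 12, and induced pluripotent stem cells (iPSC). The authors deposited 1 peak list per stage, so no replicate spread, test or p-value can be given, and every difference is between single lists. Intervals are exact Clopper-Pearson 95% intervals and cover counting error only.

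The day 2 and day 6 cells share their origin and differ in time in culture. Both came from MEF of 129XOG2 embryos at E13.5, used at passages 1 to 3 and moved to reprogramming medium the day after plating. What that medium contained is not stated in the labels used here. Medium was renewed every 2 days, and daily from day 4 to day 8, so that the day 6 cells had been fed daily and the day 2 cells had not. As background, the OG2 strain has a transgene in which Pou5f1 regulatory sequences drive a fluorescent reporter, so reads from those sequences and from the gene itself cannot be told apart. Each library was made from a mixed culture of 100000 cells, in which a change in accessibility cannot be told apart from a change in the share of cells that carry it.

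As background, chemical reprogramming replaces introduced transcription factors with small molecules that act on signalling pathways and chromatin enzymes. Fibroblast enhancers are largely bound by AP-1, TEAD and RUNX factors, and pluripotency enhancers by OCT4, SOX2 and their partners. Promoters rich in CpG dinucleotides tend to be open in most cell types, while enhancers and CpG-poor promoters are more selective.

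Sequences at transcription starts are given as examples of the classes. Shown are the 250 bases before 8 RefSeq start sites (GRCm38.p6, which has the chromosomes of mm10), 5′ to 3′, with CpG dinucleotides in capitals. Among the genes of the lists used below, they are those closest to the median observed over expected CpG ratio of their class. Cdkn1a is given at both of its start sites because these fell into different classes. The second Cdkn1a sequence was added after its values were seen.
Fos (kept, chr12:85473640-85473889, + strand): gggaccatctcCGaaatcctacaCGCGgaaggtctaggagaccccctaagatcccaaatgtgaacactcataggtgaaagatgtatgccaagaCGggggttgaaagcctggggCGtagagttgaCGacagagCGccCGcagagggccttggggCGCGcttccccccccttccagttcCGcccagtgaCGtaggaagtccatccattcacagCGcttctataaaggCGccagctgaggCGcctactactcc
Cdkn1a (kept, chr17:29093519-29093768, + strand): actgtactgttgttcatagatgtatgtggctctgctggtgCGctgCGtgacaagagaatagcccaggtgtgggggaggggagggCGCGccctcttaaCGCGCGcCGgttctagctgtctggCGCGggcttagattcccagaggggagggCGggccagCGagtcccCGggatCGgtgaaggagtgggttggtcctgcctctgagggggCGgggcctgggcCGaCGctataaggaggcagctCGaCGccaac
Ocln (day 2 only, chr13:100552719-100552968, - strand): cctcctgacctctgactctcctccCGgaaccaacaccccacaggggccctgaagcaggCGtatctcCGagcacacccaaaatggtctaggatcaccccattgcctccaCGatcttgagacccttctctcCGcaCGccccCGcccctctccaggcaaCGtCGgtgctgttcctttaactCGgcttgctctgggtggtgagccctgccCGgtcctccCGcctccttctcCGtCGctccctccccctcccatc
Dhrs3 (day 2 only, chr4:144892887-144893136, + strand): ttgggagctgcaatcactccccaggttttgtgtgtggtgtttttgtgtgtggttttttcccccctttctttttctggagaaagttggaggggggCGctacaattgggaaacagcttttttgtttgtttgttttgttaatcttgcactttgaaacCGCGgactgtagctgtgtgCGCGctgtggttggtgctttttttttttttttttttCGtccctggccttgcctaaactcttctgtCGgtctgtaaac
Pdgfra (day 6 only, chr5:75152001-75152250, + strand): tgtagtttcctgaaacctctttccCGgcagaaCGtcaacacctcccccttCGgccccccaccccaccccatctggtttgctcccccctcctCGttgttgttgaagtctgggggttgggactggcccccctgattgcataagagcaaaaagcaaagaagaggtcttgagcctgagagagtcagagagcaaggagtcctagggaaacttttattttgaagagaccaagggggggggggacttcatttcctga
Postn (day 6 only, chr3:54360857-54361106, + strand): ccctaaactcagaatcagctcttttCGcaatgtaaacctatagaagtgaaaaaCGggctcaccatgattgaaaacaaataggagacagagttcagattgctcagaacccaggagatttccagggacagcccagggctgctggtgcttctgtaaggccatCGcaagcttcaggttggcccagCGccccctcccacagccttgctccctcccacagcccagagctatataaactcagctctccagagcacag
Cdkn1a (day 6 only, chr17:29090729-29090978, + strand): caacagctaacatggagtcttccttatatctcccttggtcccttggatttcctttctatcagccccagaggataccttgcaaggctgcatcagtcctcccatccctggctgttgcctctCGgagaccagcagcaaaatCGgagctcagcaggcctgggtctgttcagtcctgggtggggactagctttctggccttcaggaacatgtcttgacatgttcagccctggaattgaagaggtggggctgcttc
Eng (neither, chr2:32646345-32646594, + strand): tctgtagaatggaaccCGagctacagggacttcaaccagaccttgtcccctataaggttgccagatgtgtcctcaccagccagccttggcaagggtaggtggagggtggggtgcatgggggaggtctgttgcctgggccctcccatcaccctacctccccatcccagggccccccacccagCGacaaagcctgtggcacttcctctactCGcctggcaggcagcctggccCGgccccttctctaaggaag

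The kept sequences of Fos, an AP-1 subunit, and Cdkn1a, a cell cycle inhibitor, hold 15 and 19 CpG. The day 2 only sequence of Ocln, a tight junction protein, holds 14, and that of Dhrs3, a retinaldehyde reductase, holds 7. The day 6 only sequences of the fibroblast receptor Pdgfra and the matrix protein Postn hold 4 each, and the upstream Cdkn1a start holds 2. Eng, a TGF-beta co-receptor shown for windows open on neither day, holds 4. In the 300 bp start windows used below, median CpG counts were 21 in kept, 15 in day 2 only, 7 in day 6 only and 3 in uncovered windows. The examples therefore do not stand for the counts of their classes. With peaks reduced to 201 bp on their summits, the Ocln and Dhrs3 windows shown were covered on neither day, while the day 6 only windows shown stayed day 6 only. The Ocln window was covered in every list but those of days 0 and 6. The Pdgfra window and the upstream Cdkn1a window were covered at day 6 and in no other list, and the Eng window at day 0 alone.

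The day 2 list was the deeper and the broader. Its peaks covered 66.9 Mb with a median width of 705 bp, against 33.4 Mb and 495 bp at day 6. Median summit pileup, recovered from the deposited fold and −log10 p, was 32 at day 2 and 20 at day 6, and background pileup was 3.08 and 2.12. The other 6 lists held 31865 to 49632 peaks. An end was covered for 9 of 10 fibroblast surface genes at day 2 and 8 at day 6, and for 13 of 16 collagen and matrix genes on each day. The iPSC list covered ends of 9 and 11 of these genes, so this coverage does not set fibroblasts apart from pluripotent cells. Since list length alone moves the counts, each comparison is also given at equal list length, with the day 2 list cut to its 57871 best-scored peaks.

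The lists also fall on either side of a split that separates days 0 and 2 and iPSC from days 4 to 12. Over all lists, 29 regions were covered on each of days 4, 6, 8, 10 and 12 and in none of the lists of days 0 and 2 and iPSC, and 11 of them reached a fold enrichment of 15 or more. The reverse pattern held for 275 regions, of which 1 reached that fold. Median peak width was 601 to 705 bp in the lists of days 0 and 2 and iPSC, and 264 to 495 bp in the other 5. Leaving these regions out removed 276 day 2 only and 29 day 6 only regions and no kept region. The part of the split in the other results was not tested. No source used here states whether blacklisted regions had been removed.

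Most day 6 chromatin was already open at day 2. Kept regions numbered 47308 (51.8%), day 2 only regions 35613 (39%) and day 6 only regions 8461 (9.26%). Of day 6 peaks, 85.4% (85.1 to 85.7) overlapped a day 2 peak, while 57.1% (56.7 to 57.4) of day 2 peaks overlapped a day 6 peak. The lists shared 28.3 Mb, which is 42.4% of the day 2 length and 84.7% of the day 6 length.

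At equal list length the excess of day 2 only regions was small. The classes then held 41771 kept regions (58.1%), 16087 day 2 only regions (22.4%) and 14072 day 6 only regions (19.6%). The shares of overlapping peaks were 72.2% (71.8 to 72.6) of day 2 and 75.7% (75.3 to 76.0) of day 6. Of the 14072 day 6 only regions, 5611 overlapped a day 2 peak that the cut had removed, so they were weak at day 2 and not without a peak. Scaling the day 2 pileups to the day 6 background removed fewer peaks, leaving 81850, and gave 47221 kept, 34572 day 2 only and 8548 day 6 only regions.

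Overlap followed peak score. In the lowest-scored 10% of the day 2 list, 12.9% (12.2 to 13.6) of peaks overlapped a day 6 peak, and in the best-scored 10% it was 99.0% (98.7 to 99.2). For day 6 these shares were 55.4% (54.2 to 56.7) and 99.6% (99.4 to 99.7). One-day peaks were therefore mostly weak in the list that had them: 613 of the 16597 peaks in the best-scored 20% of day 2, and 92 of the 11574 in that of day 6, had no partner on the other day. Few peaks sat at the overlap limit, with 149 day 2 peaks sharing 1 to 50 bp with a day 6 peak and 64 missing one by at most 50 bp.

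**Figure D1:**
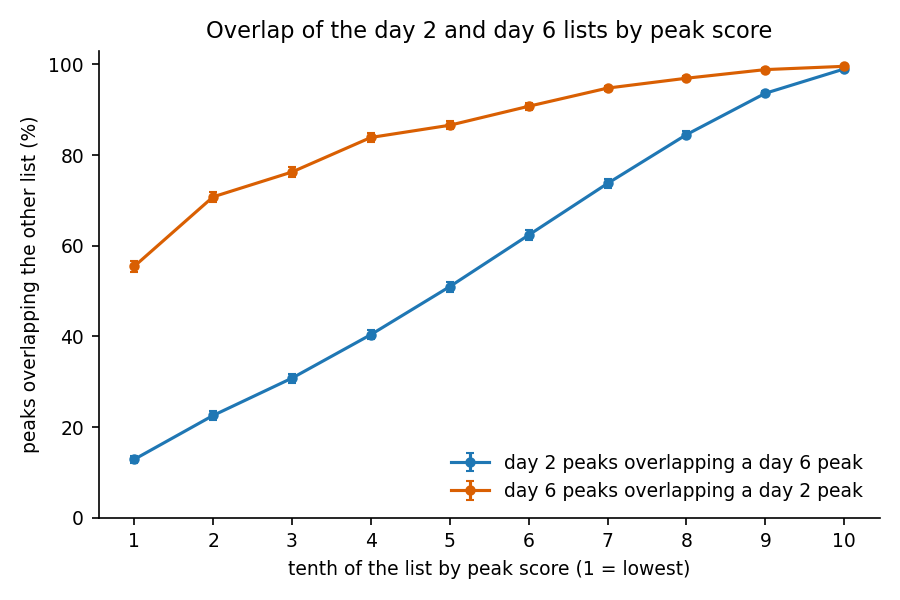
Share of peaks overlapping the other list (y axis, %) by bin of 10% of the list in order of score (x axis, 1 is lowest), for day 2 and day 6; bars are exact 95% intervals of counting error. The day 6 line starts at 55.4% and the day 2 line at 12.9%, and they end at 99.6% and 99.0%.

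Kept peaks were wider at day 2 but kept their place and much of their order. Over 45219 pairs in which 1 day 2 peak met 1 day 6 peak, median widths were 884 and 554 bp, and the day 2 peak was the wider in 85.3%. Summits lay a median of 53 bp apart, within 100 bp in 68.8% of pairs. Ranks by −log10 p within the lists had a Spearman correlation of 0.716, given as a description across pairs. The day 6 rank was the higher in 50.6% of pairs. In addition, 2035 day 2 peaks each spanned 2 or more day 6 peaks, against 62 in the other direction.

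Kept regions lay by gene ends more often than one-day regions. Within 1 kb of either end of a protein-coding gene were 23.7% (23.3 to 24.1) of kept regions, 8.13% (7.85 to 8.42) of day 2 only regions and 5.66% (5.18 to 6.18) of day 6 only regions. At equal list length the shares were 25.5%, 7.52% (7.12 to 7.94) and 7.05% (6.63 to 7.48), and the intervals of the one-day classes overlapped. Day 2 only regions were more often inside gene spans (48.1%, 47.6 to 48.6) than kept regions (37.6%, 37.1 to 38.0). Day 6 only regions were more often between genes (50.3%, 49.2 to 51.4) than day 2 only regions (43.8%, 43.3 to 44.3), and this stayed so at equal list length with 49.3% (48.5 to 50.2) against 45.0% (44.2 to 45.8). Median widths were 946 bp for kept, 497 bp for day 2 only and 300 bp for day 6 only regions, and a wide region reaches a gene end more easily than a narrow one.

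**Figure D2:**
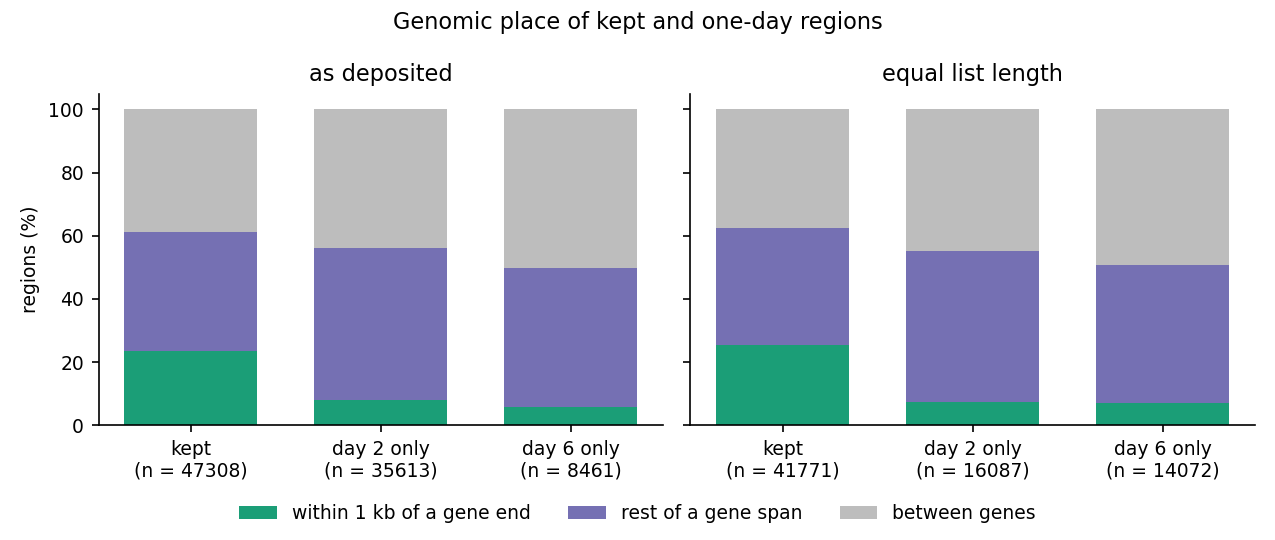
Share of kept, day 2 only and day 6 only regions (y axis, %) within 1 kb of a gene end, in the rest of a gene span and between genes, as deposited and at equal list length. The share near gene ends is 23.7% and 25.5% in the kept bars and 8.13% or lower in every one-day bar.

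The other 6 lists show where one-day regions were seen elsewhere. At day 0, 63.2% (62.7 to 63.6) of kept regions were covered, against 18.9% (18.5 to 19.3) of day 2 only and 20.8% (19.9 to 21.6) of day 6 only regions. The one-day shares at equal list length were 24.5% (23.8 to 25.1) and 26.5% (25.8 to 27.2), and in the better-scored 50% of each list 41.2% (40.4 to 41.9) of day 2 only and 49.4% (47.8 to 50.9) of day 6 only regions. The largest gap between the one-day classes was at day 4, which lies between them in time: 16.6% (16.2 to 17.0) of day 2 only regions were covered there, and 9.63% (9.01 to 10.3) of day 6 only regions. At equal list length these were 24.1% and 15.2%. Later lists separated them less, with 9.43% and 10.2% at day 8, 10.3% and 11.1% at day 10, and 3.65% and 4.44% at day 12.

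In no other list of the series were 20432 (57.4%) of the day 2 only and 4962 (58.6%) of the day 6 only regions, against 7068 (14.9%) of the kept. With lists of equal length these shares were 49.2%, 49.7% and 12.4%, and in the better-scored 50% of each list 30.4%, 27.1% and 5.62%. Of the kept regions, 8914 (18.8%) were covered in all 8 lists. The most frequent other patterns of kept regions were day 4 alone (6002), day 0 alone (5645) and both (5064). For day 2 only regions day 0 alone (3968) and day 4 alone (3539) came next after none, and for day 6 only regions day 0 alone (1249) came before day 4 alone (451).

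In iPSC, gene-end and distal regions differed. Of day 2 only regions by gene ends, 42.9% (41.1 to 44.7) were covered in iPSC, against 20.9% (17.3 to 24.8) of day 6 only and 85.8% (85.2 to 86.5) of kept regions there. Away from gene ends the shares were 9.20% (8.89 to 9.52), 9.61% (8.97 to 10.3) and 19.9% (19.5 to 20.3). At equal list length the gene-end shares were 52.4% for day 2 only and 33.7% for day 6 only regions, and the distal shares 9.11% (8.66 to 9.59) and 12% (11.5 to 12.6).

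**Figure D3:**
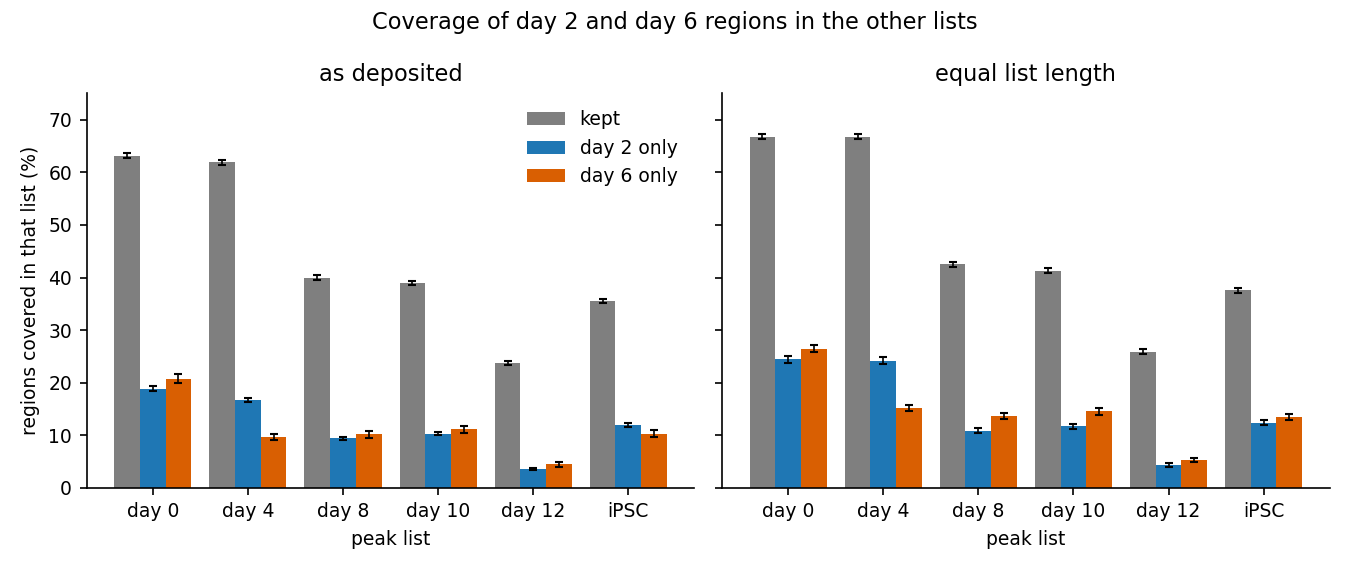
Share of kept, day 2 only and day 6 only regions (y axis, %) covered in each of the other 6 peak lists (x axis), as deposited and at equal list length; bars are exact 95% intervals of counting error. Day 4 is the list in which the one-day classes lie furthest apart, at 16.6% and 9.63% as deposited.

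More genes had an end covered at day 2 and not day 6 than the reverse. Of 21887 protein-coding genes, 13605 had an end covered at day 2 and 11928 at day 6, with 11718 in common. Ends of 1887 genes (8.62%) were covered at day 2 and not day 6, and ends of 210 genes (0.959%) the reverse. At equal list length the counts were 1040 (4.75%) and 581 (2.65%). The day 2 peaks then still covered 53.9 Mb against 33.4 Mb at day 6, and a wide peak reaches a gene end more easily. Gene ends were not counted under peaks of fixed width, but start windows were, as given below. Of the 1887 genes, 62.3% (60.0 to 64.5) had an end covered in iPSC, 41.9% (39.7 to 44.2) at day 0 and 32.4% (30.3 to 34.6) at day 4. These counts take either end of a gene, so a later list can cover the other end. Of the 210 genes, 36.7% (30.1 to 43.6) were covered in iPSC and 15.2% (10.7 to 20.8) at day 4. Among all genes the shares were 58.6% in iPSC, 55.0% at day 0 and 51.6% at day 4.

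With peaks as called, start windows covered at day 2 only were richer in CpG than those covered at day 6 only, but not with peaks of fixed width. RefSeq gives 32851 windows of 300 bp around the starts of 27025 genes. Of these, 11742 were covered on both days, 2708 (8.24%) at day 2 only, 260 (0.791%) at day 6 only and 18141 on neither. The median observed over expected CpG ratio was 0.780 in kept, 0.592 in day 2 only, 0.352 in day 6 only and 0.207 in uncovered windows, against 0.384 over all windows. At equal list length 5.36% of windows were day 2 only and 1.63% day 6 only, with median ratios of 0.607 and 0.483. With peaks reduced to 201 bp on their summits, an alternative chosen after seeing the data, 6.14% of windows were day 2 only and 4.26% day 6 only. The median ratios were then 0.688 and 0.698, so the CpG difference between the one-day classes was not present for peaks of fixed width.

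Short motifs were counted in the same windows on both strands as a description. No motif searched contains another. The GC box GGGCGG was in 66.5% of kept, 52.2% of day 2 only and 31.9% of day 6 only windows, and in 35.7% of all windows. The AP-1 motif TGANTCA was in 5.48% of kept, 7.87% (6.88 to 8.94) of day 2 only and 11.5% (7.92 to 16.1) of day 6 only windows, and in 7.81% of all. The TATA box TATAAA was in 6.26%, 9.05% and 14.2%, and in 13.6% of all. The cAMP response element TGACGTCA was in 3.54% of kept and 1.62% of day 2 only windows, and in 1.79% of all. With peaks reduced to 201 bp on their summits, the AP-1 motif was in 8.92% (7.72 to 10.3) of day 2 only and 6.07% (4.88 to 7.45) of day 6 only windows, the reverse order, and the GC box in 58.5% and 57.3%.

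Genes were then grouped by 31 lists of pathways and cell types, with each region assigned to the nearest gene within 100 kb. Over all genes, 80.7% of the assigned one-day regions were day 2 only as deposited and 52.6% at equal list length (19.3% and 47.4% day 6 only), and each list is read against these shares. The all-gene share at equal list length is held near an even split by the cut itself. By gene, 41% of all genes had more day 2 only than day 6 only regions and 5.84% the reverse; at equal list length these were 19.7% and 17.8%. The median difference over all genes was 0 at both lengths. Intervals on list shares treat regions as separate, although regions of 1 gene share a locus.

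The 14 WNT pathway genes held 83 day 2 only and 12 day 6 only regions (87.4% day 2 only, 79.0 to 93.3), and 32 against 19 at equal list length (62.7%, 48.1 to 75.9). At equal length 9 members had more day 2 only regions and 1 had more day 6 only regions, with a median difference of 1. Dkk2, a secreted WNT inhibitor, had 13 kept, 14 day 2 only and 2 day 6 only regions. Among the nuclear effectors, Tcf7l2 had 14 kept regions with 10 against 2, and Lef1 had 9 kept with 9 against 2. The ligand Wnt5a had 9 against 0, and Axin2, a feedback inhibitor that WNT signalling induces, 7 against 1. Gene ends of Dkk2 and Wnt5b were covered at day 2 and not day 6 at both list lengths. The interval of the WNT share includes the all-gene share at both lengths.

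BMP and ID genes held 58 day 2 only and 11 day 6 only regions, and 26 against 19 at equal length. The ligands Bmp7 and Bmp4 had 14 against 1 and 9 against 0, and the receptor gene Bmpr2 had 1 against 2. Ends of the ligand gene Bmp2 and of Grem1, a BMP antagonist, were covered at day 2 and not day 6 at both lengths. The 15 TGF-beta genes were close to the background, at 72 against 19 and, at equal length, 35 against 34. Within them Inhba, which encodes an activin subunit, had 1 kept region with 8 against 0, and Ltbp1, which holds latent TGF-beta in the matrix, had 26 kept with 18 against 3.

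Among genes of cAMP signalling, 3 phosphodiesterase genes held most one-day regions. Pde4d had 39 kept regions with 43 day 2 only and 14 day 6 only, Pde4b 14 kept with 21 against 1, and Pde10a 16 kept with 13 against 2. These enzymes degrade cAMP. Together the 12 genes held 89 against 23 regions, and 43 against 32 at equal length (57.3%, 45.4 to 68.7). The Pde4b end was covered at day 2 and not day 6 at both lengths.

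The LIF and STAT3 list had day 2 only shares below that of all genes at both lengths, and the FGF and ERK list at equal length. The 8 genes of the LIF and STAT3 pathway, which maintains mouse pluripotent cells, held 43 kept, 8 day 2 only and 9 day 6 only regions (47.1% day 2 only, 23.0 to 72.2). At equal length they held 6 against 16 (27.3%, 10.7 to 50.2), with 0 members with more day 2 only and 5 with more day 6 only regions. Stat3 had 1 against 2, the kinase genes Jak1 and Jak2 2 against 1 and 0 against 2, and the receptor gene Lifr 2 against 2. The ligand gene Lif, counted with the cytokines, had 3 kept regions with 5 against 0, and 1 against 2 at equal length. Bcl3, by contrast, had its end covered at day 2 at fold 7.84, above 94.1% of that list by score, and not at day 6. FGF and ERK genes held 42 against 16 regions (72.4%, 59.1 to 83.3), and 15 against 30 at equal length (33.3%, 20 to 49). Dusp5, an ERK phosphatase, had 7 against 2, the receptor gene Fgfr1 5 against 2, the inhibitor gene Spry2 6 against 0 and Etv5 5 against 0. Dusp6, also an ERK phosphatase, had 10 kept regions with 0 against 2, and 0 against 6 at equal length. The end of Fgf2 was covered at day 2 and not day 6.

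Factors that bind fibroblast enhancers were counted by family. AP-1 genes held 36 kept, 18 day 2 only and 12 day 6 only regions (60%, 40.6 to 77.3), and 7 against 15 at equal length (31.8%, 13.9 to 54.9, which includes the all-gene share). Jun had 8 kept regions with 5 against 2, Fos 8 kept with 2 against 4, Fosl2 4 kept with 3 against 3 and Batf3 1 kept with 3 against 2. Of 34 kept AP-1 peak pairs, 70.6% had the higher rank at day 6, against 50.9% of pairs over all genes. The 12 TEAD and YAP genes held 38 against 17 regions, and 21 against 27 at equal length. Of their 71 pairs, 63.4% ranked higher at day 6. Tead1 had 15 against 4, Tead4 and Wwtr1 6 against 0 each and Vgll3 0 against 4. Of their target genes, Ankrd1 had 3 against 0, Ccn1 2 against 1, Amotl2 1 against 3 and Ccn2 0 against 2. RUNX genes held 31 against 8 regions, and 16 against 11 at equal length. Runx2 had 19 kept regions with 16 against 2 and Runx1 19 kept with 9 against 5. NFI and C/EBP genes had 56 against 8 regions (87.5%, 76.8 to 94.4) and 26 against 16 at equal length (61.9%, 45.6 to 76.4), and both intervals include the all-gene share. Nfib had 20 day 2 only and 1 day 6 only regions, Nfia 18 and 3, and Nfix 8 and 0. The Nfib end was covered at day 2 and not day 6 at both lengths, and also at days 0, 8 and 10 and in iPSC.

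Limb and trunk mesoderm factors give fibroblasts their positional identity. Their 14 genes held 88 against 12 regions (88.0%, 80.0 to 93.6), and 31 against 22 at equal length (58.5%, 44.1 to 71.9), and both intervals include the all-gene share. As deposited 12 members had more day 2 only and 0 more day 6 only regions, and at equal length 8 and 3. The homeobox cofactors Meis1 and Meis2 had 12 against 1 and 11 against 0. The limb factor Tbx5 had 1 kept region with 12 against 0. Tbx4 had its end covered at day 6 and not day 2, by a peak of 214 bp and fold 3.06 that scored above 1.37% of the day 6 list.

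Genes that mark or build the fibroblast had shares near or below the background. Mesenchymal factors held 75 against 24 regions, and 30 against 42 at equal length. Prrx1, a mesenchymal homeobox gene, had 12 kept regions with 6 against 1, and the peak at its end went from fold 6.17 at day 2, above 79.3% of that list, to fold 3.73 at day 6, above 31.8%. Snai2, a repressor of epithelial genes, kept its end peak at fold 7.94 and 7.48, and Twist1 kept its end peak at fold 4.30 and 4.55. Collagen and matrix genes were near the background at equal length, with 36 against 35. Tnc had 15 kept regions with 5 against 6, Fn1 3 kept with 8 against 0 and Col1a1 2 kept with 2 against 0. The 10 fibroblast surface genes had 21 against 8 regions, and 4 against 16 at equal length (20%, 5.73 to 43.7). The contractile list had 27 against 15, and 11 against 24 at equal length, with 0 members leaning to day 2 and 8 to day 6. Thy1 had 7 kept regions with 4 against 1, and Actn1, an actin crosslinker, 5 kept with 9 against 6.

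Cytokine genes had more day 6 only regions at equal length. They held 31 against 11 regions, and 9 against 19 at equal length, and 70.5% of 44 kept pairs ranked higher at day 6. Csf1 and Ptgs2 had 3 against 3 each, and 0 against 5 and 0 against 6 at equal length. Cxcl12 went the other way with 10 against 1. The Ccl2 end was covered at day 6, by a peak of fold 2.89, and not at day 2, though also at day 0.

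Housekeeping genes are given for comparison. Their 14 genes had 12 against 10 regions as deposited and 4 against 14 at equal length, and 67.7% of 31 kept pairs ranked higher at day 6. Their share at equal length, 22.2% (6.41 to 47.6), lay with those of the AP-1, cytokine, LIF and fibroblast surface lists. Of the 14 housekeeping day 6 only regions at equal length, 8 were by Ywhaz.

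Pluripotency genes had few kept regions and small counts on both days. The 24 genes held 37 kept, 46 day 2 only and 19 day 6 only regions, and 12 against 26 at equal length, with 1 member leaning to day 2 and 7 to day 6. Ends of 10 of them were covered on each day, against 18 in iPSC. Tbx3 had 6 kept regions with 8 against 2, Klf5 2 kept with 7 against 3, Sox2 4 kept with 7 against 2 and Esrrb 3 kept with 5 against 4. Sox2 and Sall4 ends were covered on both days, at fold 4.46 and 5.36 for Sox2 and 7.24 and 6.11 for Sall4. The Sox2 start window (chr3:34649745-34650044) was nevertheless day 2 only, as deposited, at equal length and with peaks reduced to 201 bp on their summits. The day 6 peak at the Sox2 end (chr3:34650415-34651372) lay outside that window. The Klf4 end peak had fold 5.30 at day 2 and 3.62 at day 6. The Nanog end was covered in iPSC alone, and the Zfp42 end from day 8 on.

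Pou5f1, which encodes OCT4, had an end covered at day 6 and in each later list, and not at days 0, 2 or 4. The day 6 peak (chr17:35507027-35507359) was 333 bp wide with fold 1.91, and its score was above 6.34% of the day 6 list, so it sat near the calling limit. The best-scored peaks at its ends had fold 4.25 (day 8), 3.91 (day 10), 5.56 (day 12) and 5.27 (the iPSC list). Those of day 12 (chr17:35509531-35509845) and iPSC (chr17:35503637-35506057) do not overlap the day 6 peak. For Cdkn1a, the upstream end was covered at day 6 (chr17:29090749-29091240, fold 2.80) and, of the other lists, an end was covered in iPSC by a different peak.

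Of 18 epithelial genes, 13 had an end covered at day 2 and 7 at day 6, but 7 at day 2 as well when the list was cut to equal length. Over all 21887 genes the counts were 13605, 11928 and 12387. Cdh1, the main epithelial cadherin, had an end peak at day 2 (chr8:106603372-106603850, fold 4.41, above 20.6% of the list), none at days 4 and 6, and again peaks of fold 7.64 at day 8 and 7.50 at day 10. Cldn3, Krt19 and Ocln had ends covered at day 2 and not day 6 at both lengths, and each was covered again at days 8 and 10 and in iPSC. In numbers of regions the list had 28 against 14, and 11 against 21 at equal length. Tjp1, a tight junction scaffold, held 12 of the 28 and 6 of the 14.

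Endoderm and trophoblast lists had small counts. Endoderm genes held 32 against 8 regions, and 8 against 12 at equal length. Gata4 had 2 kept regions with 3 against 2, and Sox17 1 kept with 2 against 0. Foxa1, a pioneer factor, had an end covered at day 2 and not day 6 at both lengths. That peak (chr12:57538443-57539813) and the day 0 peak (chr12:57546716-57547085) lay at different ends of the gene. Trophoblast genes held 18 against 3, and 2 against 11 at equal length.

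Ends of 8 of 13 retinoid genes were covered at day 2 and of 4 at day 6, but of 4 at day 2 as well at equal length. Rarb, a retinoic acid receptor gene, had 23 kept regions with 14 against 7. Cyp26b1, which degrades retinoic acid, had 3 against 4. Of 56 kept pairs, 41.1% ranked higher at day 6.

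The DNA methylation list had 19 day 2 only and 1 day 6 only regions, and 7 against 3 at equal length, with 9 of the 19 at Dnmt3a, a de novo methyltransferase gene, which had 0 day 6 only regions. Tet3, which encodes an enzyme that oxidises methylcytosine, held 4 against 0 regions. Lipid and sterol genes had 25 against 3 regions and 8 against 9 at equal length, glycolysis and hypoxia genes 32 against 12 and 15 against 13. The end of Egln3, an oxygen-sensing hydroxylase gene, was covered in 7 lists and not at day 6, with fold 9.39 at day 2. Cell cycle and p53 genes had 30 against 7, and 8 against 12 at equal length.

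Markers of other cell types that an embryonic culture could hold were also counted. Endothelial markers had 33 against 3 regions and 13 against 8 at equal length, and 5 of 8 ends were covered at day 2 against 3 at day 6. Ends of Cdh5 and Erg were covered at day 2 and not day 6 at both lengths. The Cdh5 peaks of day 2 (chr8:104144367-104144914) and day 8 (chr8:104101526-104102075) lay at different ends of the gene. The Erg end peak of day 2 had fold 4.14, above 36.1% of that list, and an end was also covered at days 0, 8 and 10 and in iPSC. Macrophage markers had 14 against 1, 9 of them at Ptprc, and 6 against 1 at equal length. Skeletal muscle markers had 14 against 4, neural markers 13 against 4 and spermatid markers 7 against 4. At equal length these were 5 against 5, 3 against 8 and 2 against 4, so the day 2 excess was absent or reversed. The part of these cells in the day 2 only class was not tested.

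**Figure D4:**
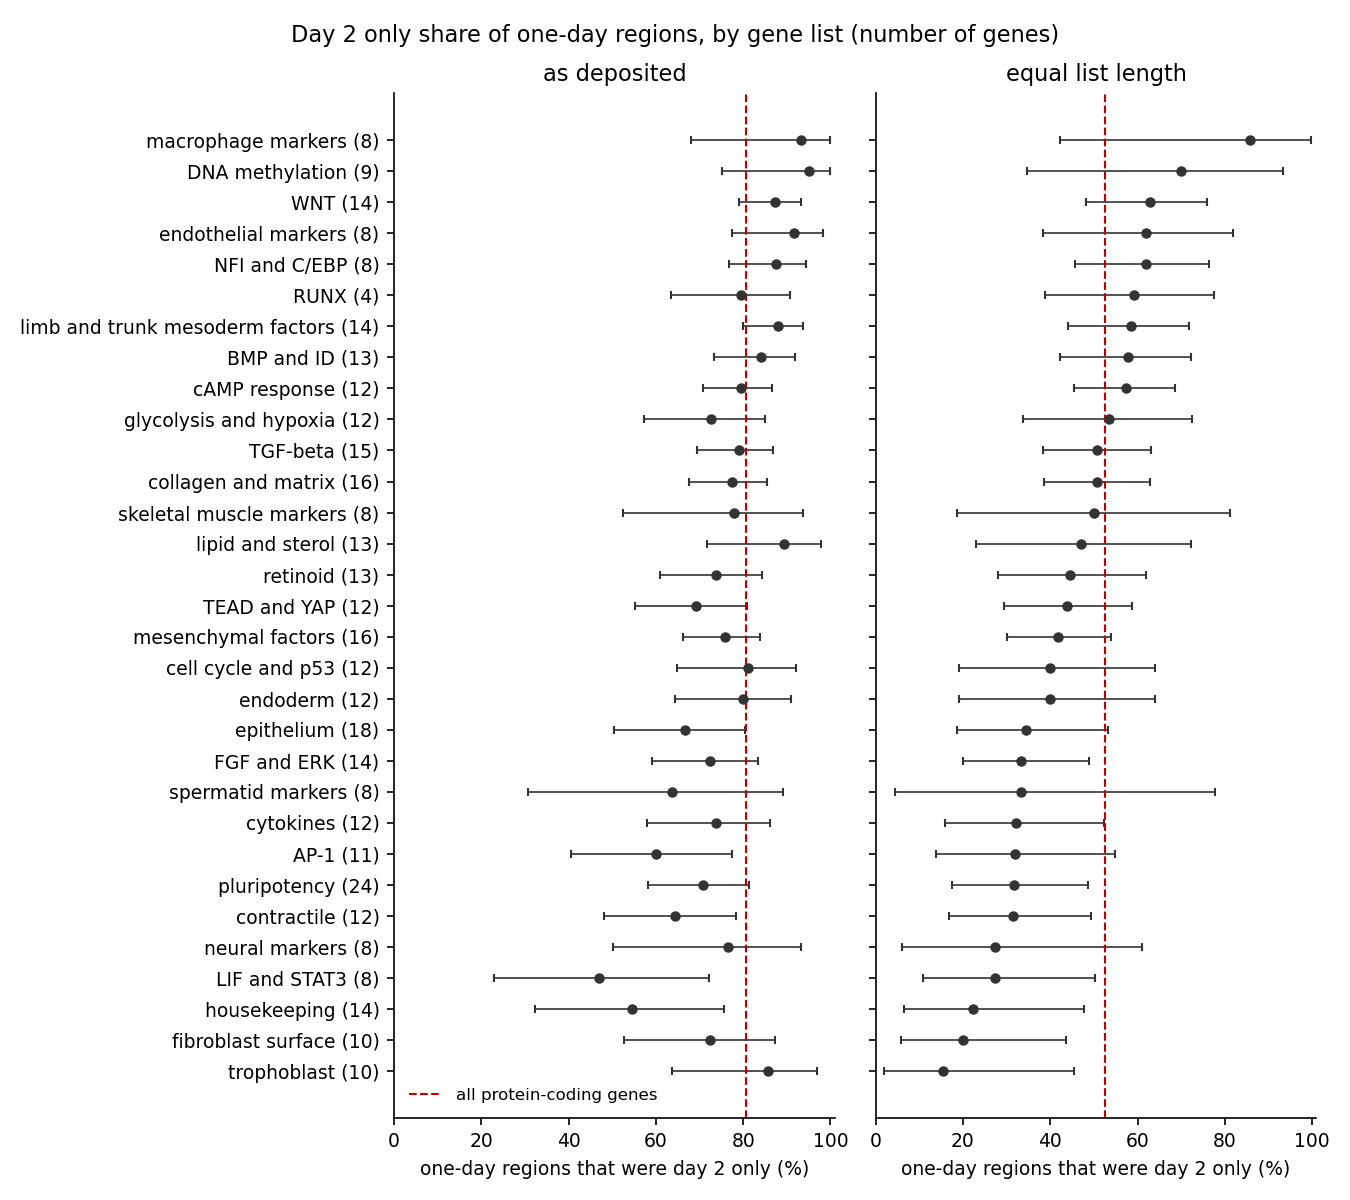
Share of one-day regions that were day 2 only (x axis, %) for 31 gene lists (y axis, number of genes in brackets), with exact 95% intervals of counting error, as deposited and at equal list length. The dashed line is the share over all protein-coding genes, 80.7% and 52.6%, and most intervals cross it.

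Single genes with the largest imbalance were long genes with many regions. At equal length the largest day 2 excess was at Macrod2 (22 against 8), Pard3 (15 against 1) and Robo1 (17 against 3). Pard3, a cell polarity gene of 548.9 kb, had 42 day 2 only and 1 day 6 only regions as deposited. Med13l, a Mediator subunit gene (19 against 0), Prdm16, a regulator of brown fat (19 against 0), and Tle4, a corepressor (13 against 0), had no day 6 only region as deposited. Nrxn3, Ptprm and Smyd3 were also among the 10 with the largest excess. The Prdm16 end was covered at day 2 as deposited, not at equal length, and in no other list.

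The largest day 6 excess at equal length was at Col24a1 (1 against 13), Thsd4 (5 against 17) and Arid5b (0 against 10). As deposited, Col24a1, a fibrillar collagen gene, still had more day 6 only regions (3 against 7), as did Arid5b (2 against 7), Antxr1 (3 against 4) and Cblb (7 against 8). The other 6, Thsd4, Npas3, Ank3, Astn2, Cradd and Pax2, had more day 2 only regions as deposited, so their direction depended on list length. Arid5b, a DNA-binding regulator of fat and mesenchymal cells, had 16 kept regions, and its end was covered from day 6 to day 10 and in iPSC, and not at days 0 to 4.

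**Figure D5:**
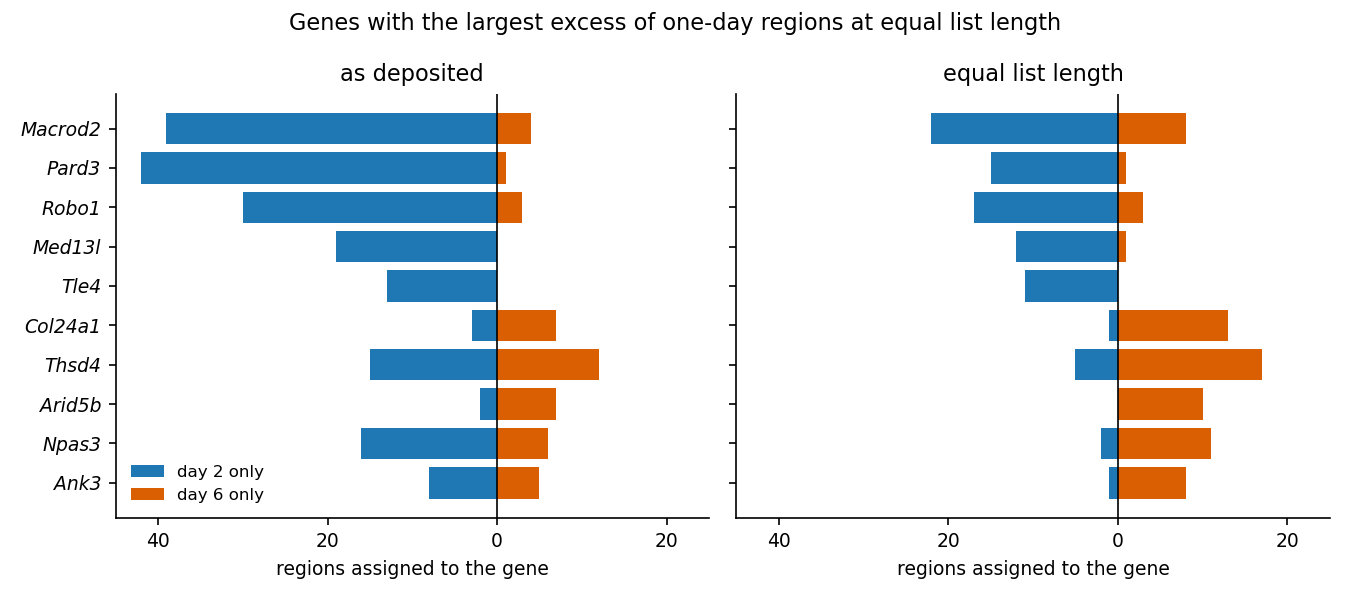
Number of day 2 only regions (bars to the left) and day 6 only regions (bars to the right) assigned to the 5 genes with the largest imbalance in each direction at equal list length (y axis), as deposited and at equal list length. Pard3, Med13l and Tle4 have at most 1 day 6 only region in either panel, and Thsd4, Npas3 and Ank3 change sides between the panels.

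The best-scored one-day peaks were of 2 kinds. The 5 best of day 2 were 630 to 940 bp wide with fold 8.99 to 16.4. They lay within the gene spans of Rbms3 (chr9:116940881-116941820), Pappa (chr4:65253724-65254619) and Trio (chr15:27849858-27850571), each also covered at day 0, and at 2 places with no gene within 100 kb, among them chr11:66789854-66790773, which was in no other list. The 10 best of day 6 were 201 to 589 bp wide with fold 18.9 to 42.6, and all 10 were covered at days 8 and 10. The first was in Chl1 (chr6:103649068-103649288) with fold 42.6 and a summit pileup of 905, and the next lay by Tcstv3 (chr13:120321438-120321638, fold 38.1) and in Stap2 (chr17:56005867-56006115, fold 18.9). Of these 10, 6 belong to the regions described above that were covered on each of days 4 to 12 and not at days 0 and 2 or in iPSC.

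Strong one-day peaks were compared with the other lists in the same way. Of the 613 day 2 peaks in the best-scored 20%, the day 4 list covered 39.3% and the day 0 list 29.7%, while day 8 covered 9.14% and iPSC 6.69%, and 4.24% lay by a gene end. Of the 92 day 6 peaks, day 0 covered 35.9%, day 4 covered 34.8%, day 8 covered 30.4% and day 12 covered 23.9%.

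MicroRNA hairpins add a class of short genes. Of 1005 RefSeq hairpins, 67 lay in peaks of both days, 46 (4.58%) of day 2 only and 2 (0.199%) of day 6 only. At equal length 64 were kept, 28 were day 2 only and 5 day 6 only. Mir34a, Mir29a and Mir193a were covered at day 2 at both lengths and in no other list, and Mir152 also at day 4. Chosen after their values were seen, they are shown as the well-studied members of the class, with the seed (bases 2 to 8) in capitals. The seeds shown differ from each other, and seeds shared with other microRNAs were not counted.
mmu-miR-34a-5p (chr4:150068473-150068494, + strand): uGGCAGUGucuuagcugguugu
mmu-miR-29a-3p (chr6:31062673-31062694, - strand): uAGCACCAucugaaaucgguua
mmu-miR-193a-3p (chr11:79712009-79712030, + strand): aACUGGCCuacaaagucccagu
mmu-miR-152-3p (chr11:96850439-96850459, + strand): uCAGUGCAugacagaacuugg

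Coverage of a hairpin says that its locus was open, not that the microRNA was made. Of these, miR-34a is a p53 target that restrains reprogramming, miR-29a targets collagen and DNA methyltransferase transcripts, and miR-152 belongs to the family that targets Dnmt1. The 2 hairpins covered at day 6 and not day 2 were Mir6347 and Mir7660, at both lengths.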

How the data were processed

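ATAC-seq was run on 16 samples at 8 stages. The submitters' processing notes name mm10, Bowtie2 2.2.5, MACS2 2.1.2, fastp 0.20.1, deepTools 3.4.3 and SAMtools, without a role, order or setting. Pooling of samples, Tn5 shifting and blacklist removal are not given in the sources used here. Each deposited narrowPeak list gives the position of a peak, its score, its fold ratio and its −log10 p at the summit, from the authors' peak caller. The q-values were not used. Score and −log10 p served to order peaks inside a list. Summit pileup and local background were recovered from fold and −log10 p through the Poisson tail that links them, with agreement to 0.001 for 99.998% or more of day 2 and day 6 peaks. Merging, overlap and recovery were tested on simulated data, and the assignment of regions to genes was not.

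Gene ends and spans came from a RefSeq table of GRCm38.p6 with 21887 protein-coding genes and no strand, so an end can be a start or a stop, and start windows from a RefSeq promoter table that is not complete: it holds 17492 of these genes. All 368 list genes were matched. Alternatives were equal list length, day 2 pileups scaled to the day 6 background, the better-scored 50% of each list, an overlap of 50% of the shorter peak, a 2.5 kb end window and a 20 kb assignment limit. Windows of 201 bp on summits, start windows under them, ranks of kept pairs and leaving out regions that separate days 0 and 2 and iPSC from days 4 to 12 were chosen after seeing the data. Members and lists were chosen with earlier results of these data known.

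Genes named are up to 4 members of a list with the most one-day regions, members whose end was covered on 1 of the 2 days at both list lengths, the 10 genes with the largest excess in each direction at equal length, the genes nearest the best-scored peaks, and Pou5f1, Sox2, Nanog, Klf4, Zfp42, Cdh1, Epcam, Twist1, Snai2, Prrx1, Thy1, Col1a1, Runx1, Fosl1, Gata4, Sox17 and Sall4. Others are examples chosen after their values were seen. Some genes that the rule takes are not reported here. Python 3.11.15, numpy 2.4.6, pandas 2.3.3, scipy 1.17.1 and matplotlib 3.10.9 were used.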

Additional observations from a re-analysis of the deposited data

How the results depend on the processing

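No paired analysis was possible because the authors deposited 1 list per stage, and for the same reason no sample could be left out. Equal list length moved most values: 16087 day 2 only and 14072 day 6 only regions, overlap shares of 72.2% and 75.7%, gene-end shares of 25.5%, 7.52% and 7.05% (kept, day 2 only, day 6 only), 1040 ends at day 2 only and 581 at day 6 only, and day 0 coverage of 66.8%, 24.5% and 26.5%. The better-scored 50% of each list gave 24637 kept, 16852 day 2 only and 4046 day 6 only regions, with overlap shares of 59.4% and 86.0%. Depth scaling moved the day 2 share to 57.8%. An overlap of 50% of the shorter peak gave 56.0% and 83.5%. Summit windows of 201 bp gave 47.6% and 68.2%, and 18400 day 6 only regions. The 2.5 kb window gave 27.7%, 13.3% and 11%. The difference of day 2 only and day 6 only regions reversed at equal length for Thsd4 (-12), Npas3 (-9), Ank3, Astn2, Cradd and Pax2 (-7 each), and under the 20 kb limit for Cblb (1). Why these values moved was not tested beyond the construction of each alternative, which removes peaks or changes the area searched. Depth limits the comparison: a region without a day 6 peak may lie under the calling limit of the shallower list, and weak day 2 peaks make up much of the day 2 only class.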

Other observations

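The 3 best-scored kept peaks of each day were covered in all 8 lists. The first was the same on both days: chr2:98666572-98667310 had a summit pileup of 7931 at day 2 and 11036 at day 6, with no protein-coding gene within 100 kb. The peak at chr13:9011686-9012243, near Gtpbp4, had fold 28.8 at day 2 and 40.2 at day 6. The remaining ones were at chr9:3000178-3002811 for day 2 and chr14:19415727-19419362 for day 6.

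Within kept pairs away from gene ends, the change of rank by −log10 p differed with coverage at day 4. Pairs covered at day 4 (18694) had a median shift of -1.49 percentile points from day 2 to day 6, and pairs not covered there (16180) one of 1.96. Split by day 0 instead, the medians were 0.678 for covered pairs (18900) and -1.38 for the others (15974). Pairs near gene ends (10345) had a median of 0.745. The middle 50% of all pairs lay between -12.5 and 12.8, so these shifts are small beside the spread between pairs, and they have no replicate check.

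Ends of 7 of 8 spermatid marker genes were covered at day 0, of 1 at day 2 and of 0 at day 6. Over all 21887 protein-coding genes the counts were 12034, 13605 and 11928. Tnp2, Prm2 and Prm1, each covered at day 0, lie together at chr16:10787935-10796823, so they share a locus and are not separate observations. The source of this difference was not tested.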
